A study of Canis lupus familiaris with 36 samples.

Results

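The 4 mature microRNAs (miRNAs) described here are cfa-miR-451, cfa-miR-144, cfa-miR-486 and cfa-miR-486-3p, chosen by name as the erythroid pair of miR-451 and miR-144 with both arms of the miR-486 hairpin. They are 4 of the 453 mature miRNAs in the deposited table, and all 4 were among the 225 that had enough reads to be tested. Small RNA was sequenced from formalin-fixed, paraffin-embedded heart tissue of dogs. The 6 hemangiosarcoma (HSA) libraries came from dogs with cardiac HSA, a malignant tumor of endothelial cells that forms blood-filled channels. The 6 control libraries came from necropsied dogs whose death had a cause other than a tumor, and each library is a separate dog. The authors report, without separating the organs, that the HSA dogs were significantly older than the control dogs. Earlier chemotherapy did not exclude a dog, and treatment status was not stratified. Neither age nor chemotherapy was part of the fits here. Whole tissue sections were used, so in these bulk samples fewer cells of a type and less RNA per cell cannot be told apart.

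The titles and the treatment field of the sample labels give opposite conditions for all 12 cardiac libraries. Libraries were grouped by title, and every direction below rests on that choice. Splenic libraries were not analysed here. Total counts, with entries that repeated another in name and counts taken once, were 6999830 to 11668822 for the control hearts (median 9049880.5). For the HSA hearts they were 2018959 to 8999025 (median 4233661). The HSA libraries held miRNAs of other tissues at very unequal levels, and all 6 exceeded every control in both lists that follow. In HSA replicate 3 the summed miRNAs of liver and gut (miR-122, miR-192 and miR-194) reached 216640 normalized CPM (counts scaled to a common library size), against 157 to 261 in control and 339 to 4016 in the other HSA libraries, of which replicates 4 and 5 were highest at 2024 and 4016. The summed epithelial miRNAs reached 13773 CPM in HSA replicate 5, 5482 in replicate 3, 4825 in replicate 2 and 579 in replicate 4, against 9.88 to 23.8 in control. Most of that sum was miR-375 in replicates 2, 3 and 5 (4486, 5292 and 10488 CPM), but not in replicate 4 (34.7 CPM). Another miRNA of the list, miR-200c, was at only 7.98 and 10.9 CPM in replicates 2 and 3, against 213 and 1569 CPM in replicates 4 and 5. The 8 miRNAs of heart and skeletal muscle, led in textbooks by miR-1 and the miR-133 family, summed to 189921 to 271362 CPM in control but only to 942 CPM in HSA replicate 3.

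miR-451 and miR-144 are processed from 1 primary transcript that is switched on by GATA1 during red cell formation. miR-144 is released by Dicer in the usual way, whereas miR-451 bypasses Dicer, is cut by AGO2 and then trimmed, and accumulates in mature red cells. miR-486 lies in ANK1, the ankyrin gene that is transcribed from separate promoters in red cell precursors and in muscle, and its hairpin yields an arm listed as miR-486 and an opposite arm listed as miR-486-3p. In the RefSeq gene table of another dog assembly, UU_Cfam_GSD_1.0, MIR451 and MIR144 were immediate neighbors between ERAL1 and FLOT2, and MIR486 lay within ANK1 beside NKX6-3. The authors aligned to CanFam3.1, so no coordinates are given.

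The 4 miRNAs did not move together in cardiac HSA. miR-144 was higher and miR-486-3p lower than in control, and both passed the test, which asked for an adjusted p below 0.01 together with a change of at least 1 in log2 terms, up or down. miR-451 and miR-486 did not pass it. Thus 2 of the 4 were called, beside 25.8% of all tested miRNAs (58 of 225). The miRNA called higher stands beside 18.7% of the table called higher, and the one called lower beside 7.11% called lower. Scaling by library size alone turned the split of 42 higher and 16 lower calls over the table into 68 and 5, limma gave 53 and 5, and TMM factors computed without the 4 members gave 28 and 20. Levels are CPM after trimmed mean of M values (TMM) normalization, and adjusted p-values are from edgeR's quasi-likelihood test with Benjamini-Hochberg adjustment over the table.

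cfa-miR-451, the red cell miRNA that dampens 14-3-3ζ (YWHAZ), ranged in control from 4938 to 12290 CPM with a median of 7731 (8312 ± 2728, SD, n = 6). In HSA it ranged from 2131 to 34027 CPM with a median of 12919 (14587 ± 10990, SD, n = 6). The groups overlapped: 4 HSA libraries lay above every control, HSA replicate 2 lay inside the control range at 7357 CPM, and HSA replicate 5 lay below every control. The highest HSA library held 16.0 times the level of the lowest, against 2.49 times in control. The log2 fold change was 0.81 (SE 0.50, edgeR adjusted p = 0.198). Without HSA replicate 5 it was 1.03 (edgeR adjusted p = 0.0433) and without HSA replicate 4 it was 0.23 (edgeR adjusted p = 0.716), and neither passed the threshold of 0.01. Among the mature miRNAs of a library ranked by count, miR-451 held a place between 19 and 29 in control and between 5 and 43 in HSA.

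cfa-miR-144, which targets the antioxidant regulator NRF2 in erythroid cells, was the scarcest of the 4 in control. It ranged there from 21.5 to 46.1 CPM with a median of 31.4 (32.3 ± 11.2, SD, n = 6), and in HSA from 24.2 to 154 CPM with a median of 125.9 (110 ± 50.6, SD, n = 6). In 5 of 6 HSA libraries miR-144 lay above every control, and HSA replicate 5 lay inside the control range. The log2 fold change was 1.77 (SE 0.41, edgeR adjusted p = 0.00469), place 42 among the rises of the table. The lowest raw count was 148 in control and 129 in HSA, where counting error alone is 8.22% and 8.80%, small beside the coefficients of variation between dogs of 34.7% and 46.0%. The call was lost without control replicate 1, 2, 4 or 5 or without HSA replicate 1, 2, 3 or 4, with adjusted p-values up to 0.0252 in edgeR, while the log2 fold change stayed between 1.51 and 1.97. TMM factors computed without the 4 members also lost it, at a log2 fold change of 1.57 (edgeR adjusted p = 0.0128).

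**Figure D1:**
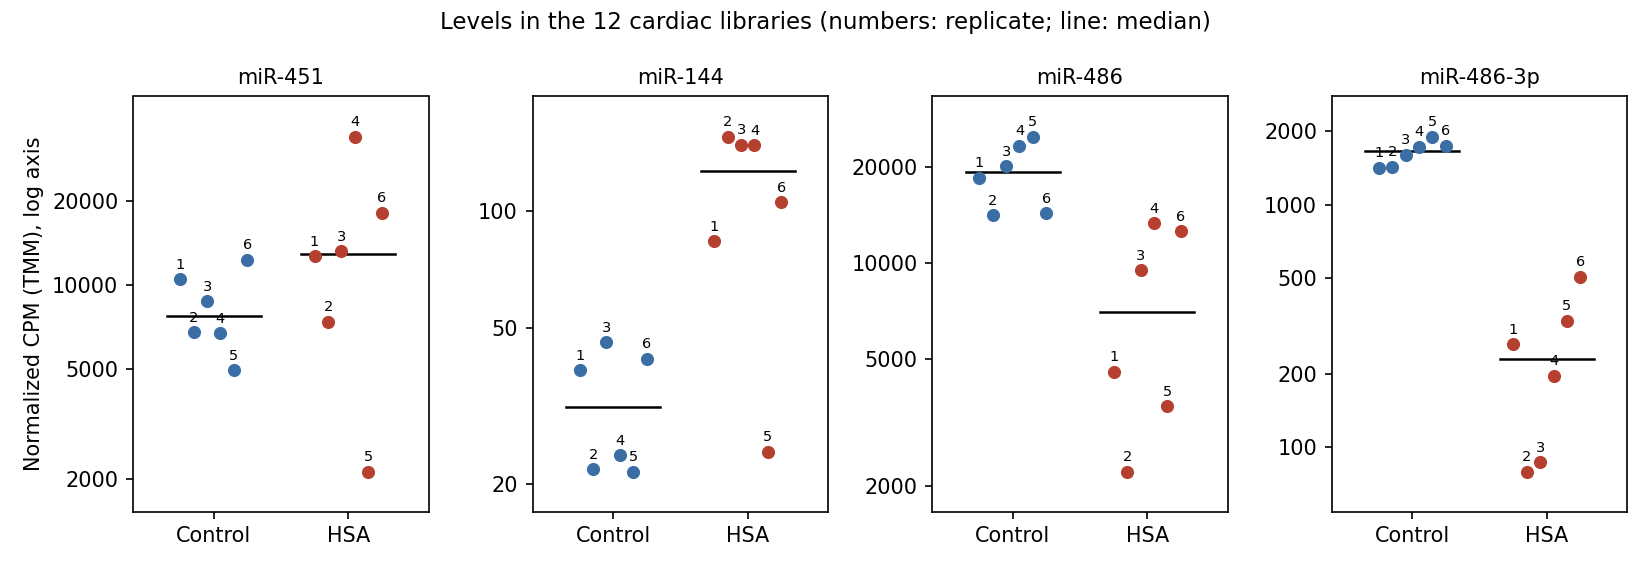
Each panel shows 1 miRNA, with normalized CPM on a log axis and a separate range per panel, in 6 control (blue) and 6 HSA (red) libraries. Points are libraries numbered by replicate and lines are medians. All HSA points lie below all control points for miR-486 and miR-486-3p, 5 of 6 lie above for miR-144, and the groups overlap for miR-451.

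cfa-miR-486, an arm known from red cells and muscle for its repression of FOXO1, ranged in control from 14093 to 24842 CPM with a median of 19287 (19182 ± 4471, SD, n = 6). In HSA it ranged from 2210 to 13305 CPM with a median of 7021 (7612 ± 4805, SD, n = 6). All 6 HSA libraries lay below all 6 controls. The log2 fold change was -1.33 (SE 0.42, edgeR adjusted p = 0.0205), which missed the threshold of 0.01. DESeq2 placed the same difference past it, at -1.39 (DESeq2 adjusted p = 0.00798). By raw count miR-486 held a place between 13 and 17 in control and between 12 and 39 in HSA.

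cfa-miR-486-3p, the opposite arm of the same hairpin, ranged in control from 1417 to 1903 CPM with a median of 1667 (1638 ± 191.7, SD, n = 6). It ranged in HSA from 79.2 to 504 CPM with a median of 231 (244 ± 161, SD, n = 6). The groups did not overlap, and the highest HSA library, replicate 6, was still well below the lowest control. The log2 fold change was -2.75 (SE 0.42, edgeR adjusted p = 0.000935), the lowest of the 225 tested, and it passed in every fit that left out 1 library. Across dogs it was the steadiest of the 4 in control, with a coefficient of variation of 11.7%, against 66.0% in HSA. Both miR-486 arms, 2 of the 4 miRNAs, showed no overlap between groups, beside 25.8% of the tested table.

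Where the median of all tested miRNAs was not at 0 the members can be read relative to it. That median was 0.34 with TMM factors, 0.97 with library size alone, 0.74 in limma and 0.10 with TMM factors computed without the members. Relative to it, miR-451 stood 0.47 higher with TMM and 0.33 higher with library size alone, and miR-144 stood 1.43 and 1.45 higher. miR-486 stood at -1.67 and -1.84 and miR-486-3p at -3.09 and -3.28 in the same 2 fits. The direction of each member was therefore the same on both scalings. Without HSA replicates 3 and 5, which had the highest liver and epithelial sums, the TMM log2 fold changes were 1.11 for miR-451, 1.92 for miR-144, -1.24 for miR-486 (edgeR adjusted p = 0.0529) and -2.65 for miR-486-3p, and again miR-144 and miR-486-3p were called (edgeR adjusted p = 0.00245 for both). With its high epithelial sum, mostly miR-375, HSA replicate 2 was still in that fit. When it was left out too, a choice made after seeing the data that leaves 3 HSA libraries, the log2 fold changes were 1.46 for miR-451, which was then called (edgeR adjusted p = 0.00663), 1.88 for miR-144, -0.84 for miR-486 (edgeR adjusted p = 0.0764) and -2.26 for miR-486-3p.

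The ratio of 2 counts in a library does not depend on scaling. In control, 1 read of miR-144 came with 189 to 310 reads of miR-451 (median 275), and in HSA with 47.6 to 232 (median 121). The ratio was below every control in 5 of 6 HSA libraries, and HSA replicate 4 lay inside the control range. The mean log2 ratio was 8.01 ± 0.27 (SD) in control and 6.84 ± 0.83 in HSA, a 2.25-fold lower ratio in HSA (exact two-sided permutation test, p = 0.00649, adjusted p = 0.0110 over 22 ratios). The smallest p that 6 libraries against 6 can give is 0.00216.

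The arms of miR-486 also differed in proportion. Each read of miR-486-3p came with 8.20 to 13.4 reads of miR-486 in control (median 12.8). In HSA the values were 17.2, 27.9, 109, 67.5, 10.7 and 24.9 for replicates 1 to 6 (median 26.4). Only HSA replicate 5 fell within the control range, and replicates 3 and 4 were far above it. The mean log2 ratio was 3.52 ± 0.29 (SD) in control and 4.97 ± 1.25 in HSA, a 2.72-fold higher ratio (exact permutation test, p = 0.0108, adjusted p = 0.0170). Without control replicate 6 the exact permutation test gave an adjusted p of 0.0510 with a log2 difference of 1.35, and the difference of medians gave 1.04 with an adjusted p of 0.0603.

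**Figure D2:**
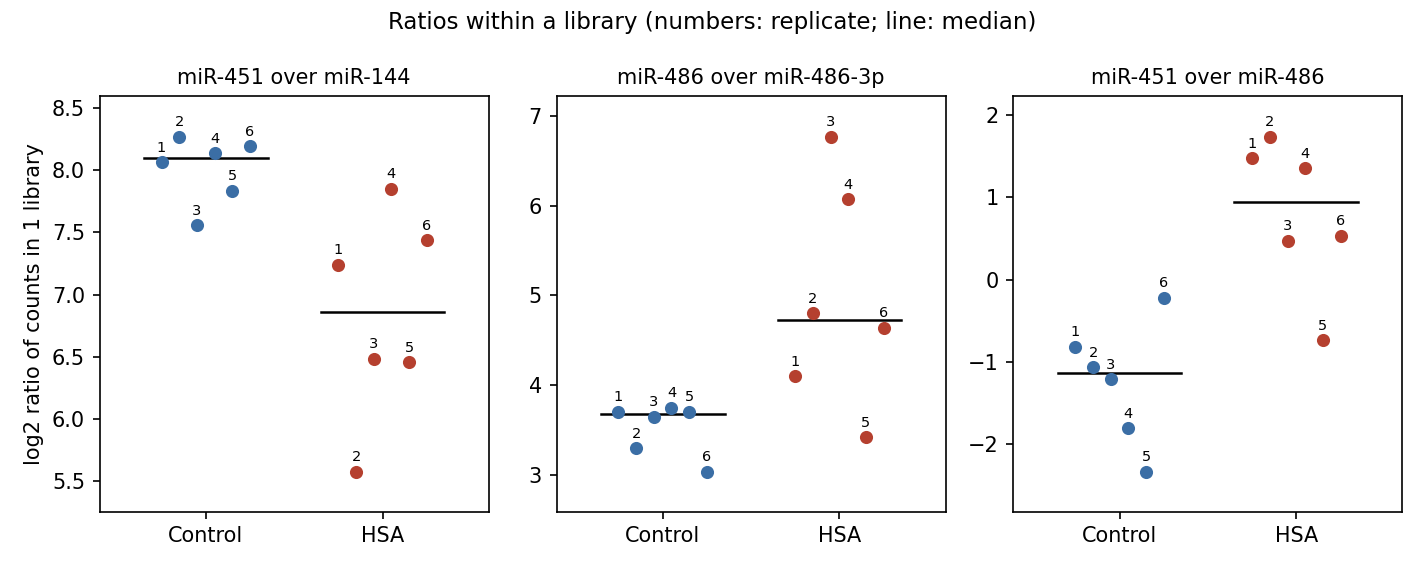
The vertical axes give the log2 ratio of 2 counts within a library, for miR-451 over miR-144, miR-486 over miR-486-3p and miR-451 over miR-486, in control (blue) and HSA (red). Points are libraries numbered by replicate and lines are medians. In each panel 5 of 6 HSA libraries lie outside the control range, below it for the first ratio and above it for the others.

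The balance between miR-451 and miR-486 shifted as well. Control libraries held 0.199 to 0.859 reads of miR-451 per read of miR-486 (median 0.456), and HSA libraries 0.600 to 3.33 (median 2.00). miR-486 outnumbered miR-451 in all 6 controls, whereas miR-451 outnumbered miR-486 in 5 of 6 HSA libraries. The ratio was 4.12-fold higher in HSA (exact permutation test, p = 0.00433, adjusted p = 0.00952). miR-451 over miR-486-3p was 11.2-fold higher (exact permutation test, adjusted p = 0.0110), and 5 of 6 HSA libraries lay above every control. Its log2 difference went from 3.49 to 4.11 without HSA replicate 5.

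The ratios of miR-144 to the miR-486 arms separated the groups without overlap, as the normalized level of each arm did alone. The share of other miRNA pairs that would do so was not computed. In control a single read of miR-144 came with 342.1 to 1155 reads of miR-486 (median 559), and in HSA with 14.3 to 147 (median 77.5). miR-144 over miR-486 was 9.29-fold higher in HSA and miR-144 over miR-486-3p was 25.3-fold higher, each with an adjusted p of 0.00529 in the exact permutation test. All 6 controls had the order miR-486, miR-451, miR-486-3p and miR-144 from most to least reads. That order appeared in 1 HSA library, replicate 5. In 3 HSA libraries miR-451 led and the rest of the order was as in control, and in the other 2 miR-451 led and miR-144 also outnumbered miR-486-3p. Ligation favors some small RNAs over others, so an order of reads need not be an order of molecules.

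Each of the 4 was then set against reference miRNAs within the same library, not all of which mark 1 cell type. Relative to miR-23a, the usual reference for red cell RNA in plasma, miR-451 had a log2 difference of -0.14 between HSA and control (exact permutation test, adjusted p = 0.827) and miR-144 of 1.03 (exact permutation test, adjusted p = 0.0595). miR-486 and miR-486-3p were 4.54-fold and 12.3-fold lower relative to miR-23a (exact permutation test, adjusted p = 0.00529 for both). miR-23a itself had a log2 fold change of 0.61 (edgeR adjusted p = 0.0417) and was not called. Without HSA replicate 5 miR-144 over miR-23a was 1.36 higher (exact permutation test, adjusted p = 0.00317), and miR-451 over miR-23a turned to 0.27 (exact permutation test, adjusted p = 0.639). miR-144 over miR-23a also passed without HSA replicate 1, and miR-451 over miR-23a also turned positive without HSA replicate 2.

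miR-126, the miRNA of endothelium, had a log2 fold change of -0.45 and was not called (edgeR adjusted p = 0.328). Relative to it miR-144 was 4.90-fold higher and miR-486-3p 5.16-fold lower, without overlap between the groups (exact permutation test, adjusted p = 0.00529 for both). The log2 differences of miR-451 over miR-126, 1.12, and of miR-486 over miR-126, -0.92, did not pass (exact permutation test, adjusted p = 0.160 and 0.209). They passed without HSA replicate 5, at 1.50 for miR-451 (exact permutation test, adjusted p = 0.0224), and without HSA replicate 4, at -1.34 for miR-486 (exact permutation test, adjusted p = 0.0413).

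miR-16, abundant in red cells and many other cells, had a log2 fold change of -0.08 (edgeR adjusted p = 0.717). Against it miR-144 was 3.33-fold higher, miR-486 was 2.79-fold lower and miR-486-3p was 7.60-fold lower (exact permutation test, adjusted p = 0.0110, 0.00529 and 0.00529). miR-451 over miR-16 had a log2 difference of 0.56 (exact permutation test, adjusted p = 0.303), which was 0.92 without HSA replicate 5 (exact permutation test, adjusted p = 0.0238).

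**Figure D3:**
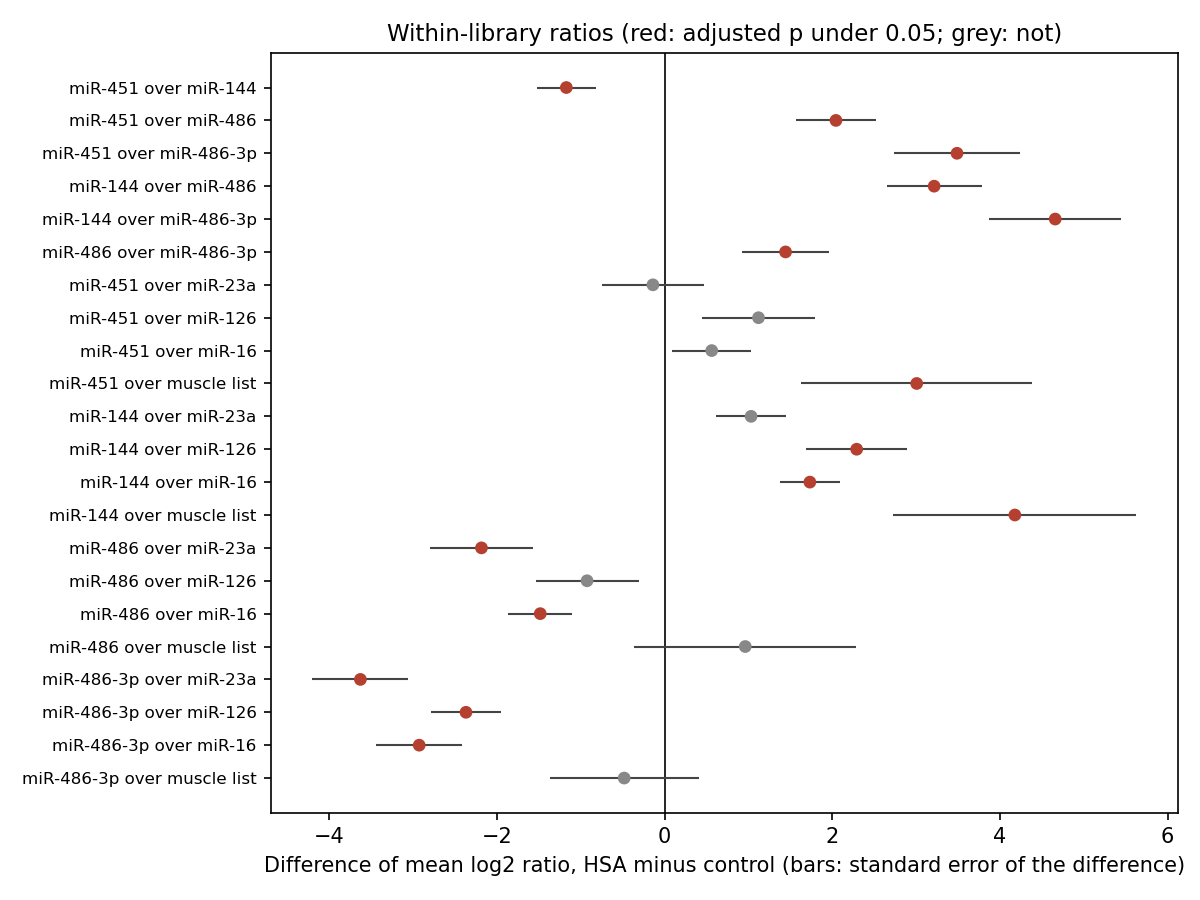
The horizontal axis gives the difference in mean log2 ratio, HSA minus control, for the 6 ratios between members and the 16 ratios of a member to miR-23a, miR-126, miR-16 or the summed muscle list. Bars are standard errors of the difference, and red marks an adjusted p under 0.05. miR-144 over miR-486-3p lies farthest to the right at 4.66, and miR-486-3p over miR-23a farthest to the left at -3.63.

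The muscle miRNAs moved over a wide range among the HSA libraries. None of the 8 was called, beside 25.8% of the tested table, 1 had a positive log2 fold change, and their median log2 fold change was -1.24, beside 0.34 over all tested miRNAs. Their sums were 190256, 21821, 942, 40090, 94724 and 233009 CPM in HSA replicates 1 to 6. The entries of miR-133a and miR-133c hold almost the same reads, which these sums count under both names. With miR-133c left out, the control hearts were at 127045 to 187517 CPM and HSA replicates 1 to 6 at 130291, 13502, 687, 26191, 61530 and 161535 CPM, and the median log2 fold change was again -1.24. HSA replicates 1 and 6 lay, with either sum, within the control range of the muscle sum, replicate 1 close to its lower end. Single members of the list did not all do so. In replicates 1 and 6 miR-208b was at 67.7 and 68.3 CPM, below the lowest control at 85.4 CPM. There miR-133b was at 1107 and 800 CPM, above the highest control at 741 CPM. In those libraries miR-486-3p was at 265 and 504 CPM and miR-486 at 4552 and 12561 CPM, below every control. In HSA replicate 3, where the muscle sum was lowest, miR-486 was at 9490 CPM and miR-486-3p at 86.8 CPM.

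Relative to the muscle sum, the log2 difference was 0.96 for miR-486 and -0.48 for miR-486-3p, and neither passed (exact permutation test, adjusted p = 0.698 and 0.719). Without HSA replicate 3 the values were -0.23 for miR-486 (exact permutation test, adjusted p = 0.745) and -1.32 for miR-486-3p, which then passed (exact permutation test, adjusted p = 0.00476). miR-144 over the muscle sum was 18.1-fold higher (log2 difference 4.18, 2.98 without HSA replicate 3 and 4.83 without HSA replicate 5), with an adjusted p of 0.00529 in the exact permutation test. miR-451 over the muscle sum was 8.04-fold higher (exact permutation test, adjusted p = 0.0413), and its log2 difference fell from 3.01 to 1.88 without HSA replicate 3 (exact permutation test, adjusted p = 0.0536). That call was also lost without any 1 control or HSA replicate 2, with adjusted p-values up to 0.101 in the exact permutation test. The part of the muscle content in the lower miR-486 arms was not tested.

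**Figure D4:**
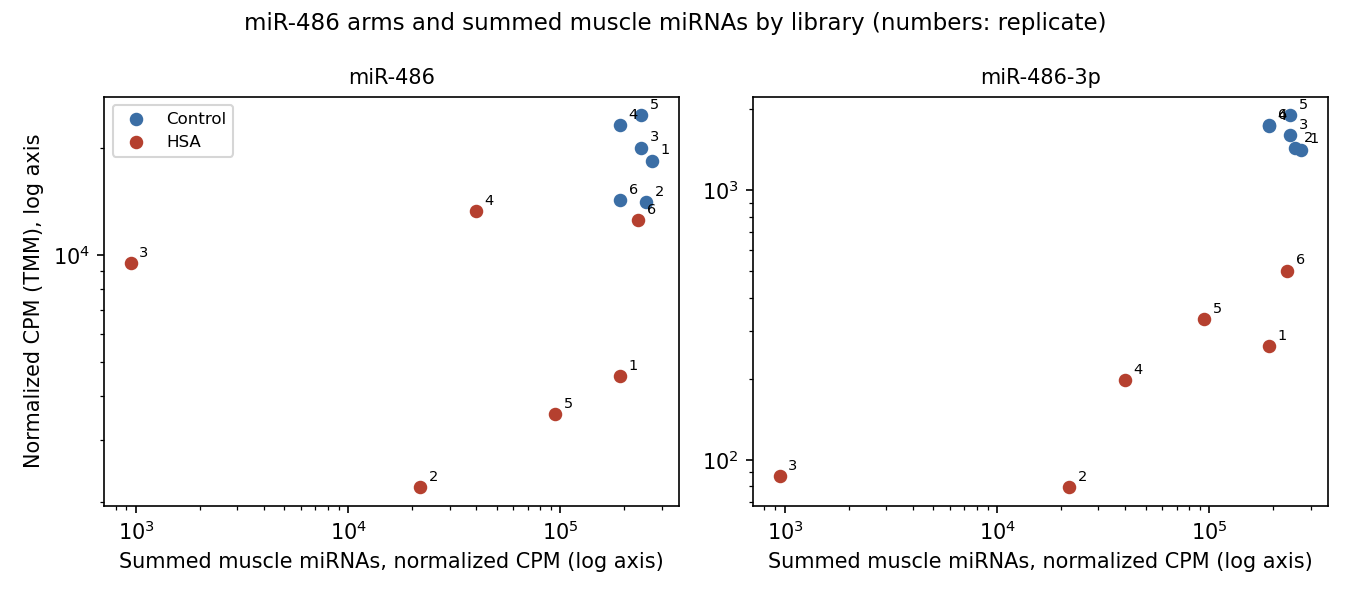
The horizontal axis gives the summed CPM of the 8 muscle miRNAs and the vertical axis the CPM of miR-486 or miR-486-3p, both log, in control (blue) and HSA (red) libraries numbered by replicate. HSA replicates 1 and 6 share the control range of the muscle sum, and their points lie below all controls on the vertical axis in both panels.

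Of a list of 16 other red cell miRNAs, 15 were tested (miR-96 was not), 1 was called higher and 0 lower, beside 18.7% and 7.11% of the tested table. The median log2 fold change of the list was 0.24, beside 0.34 over all tested miRNAs, and 10 of the 15 were positive. The called member was miR-182, with the highest log2 fold change of the list at 5.34 (edgeR adjusted p = 0.00226). It belongs to a cluster best known from sensory and epithelial cells. HSA replicate 5 held 531 CPM of it, the other HSA libraries 11.3 to 57.6 CPM and the controls 0.436 to 5.43 CPM, and without HSA replicate 5 its log2 fold change was 3.60 (edgeR adjusted p = 0.000904). The lowest was miR-191 at -0.46 (edgeR adjusted p = 0.0640). The summed list ran from 24468 to 28579 CPM in control and from 19968 to 29469 CPM in HSA. Its largest parts in control were miR-22, miR-191 and miR-92a (means 6545, 5071 and 4124 CPM). The entry of miR-107 holds almost the same reads as that of miR-103, which is not on the list (totals 231808 and 231810). The list holds miRNAs such as miR-16 that are abundant in many other cells, so the sum is not a measure of red cells alone.

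Leukocyte miRNAs were called higher in HSA for 5 of 6 on the list, beside 18.7% of the tested table. They were miR-223 of neutrophils and monocytes (log2 fold change 3.58), miR-146a (2.63), miR-150 of lymphocytes (2.35), miR-155 (2.27) and miR-142 (2.16). miR-342 was not called (-0.44), and the median over the list was 2.31. Their sum ran from 581 to 874 CPM in control and was 1338, 5569, 4444, 6276, 1719 and 1320 CPM in HSA replicates 1 to 6. The 3 HSA libraries with the highest leukocyte sums, replicates 2, 3 and 4, were also the 3 with the highest miR-144. The same 3 had the lowest muscle sums (21821, 942 and 40090 CPM) and the lowest miR-486-3p (79.2, 86.8 and 197 CPM), so several traits ranked these libraries alike. The part of blood or inflammatory cells, or of muscle content, in the higher miR-144 was not tested.

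Likeness to other miRNAs was described by Pearson's r of log2 CPM after each group's mean was subtracted, over 12 libraries that share depth and tissue content, and without a test. The 3 most like miR-451 were miR-16 (r = 0.83), miR-20a (0.75) and miR-454 (0.73). Those most like miR-144 were miR-223 (0.85), miR-363 (0.84) and miR-20b (0.82). For miR-486 they were miR-331 (0.82), miR-20a (0.76) and miR-30a (0.74). miR-486-3p had a different set, miR-1249 (0.97), miR-30d (0.93) and miR-30b (0.91). Among the members, miR-451 and miR-144 had an r of 0.80, miR-451 and miR-486 of 0.60, and the miR-486 arms of 0.33. The r was 0.25 for miR-144 and miR-486, -0.05 for miR-451 and miR-486-3p, and -0.51 for miR-144 and miR-486-3p. Some of these values join opposite signs within the groups. For miR-451 and miR-486 r was -0.60 in control and 0.74 in HSA, and for miR-144 and miR-486 it was -0.28 and 0.34.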

How the data were processed

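The authors trimmed reads with Cutadapt, aligned them with Bowtie to CanFam3.1 and miRBase, and counted them with HTSeq, and the deposited raw counts per mature miRNA and precursor were the main input. The deposited CPM are these counts scaled by the library total (largest recomputed difference 0.00499 CPM) and served for an alternative. The labels name a QIAseq kit for these libraries whereas the methods name NEXTflex. Of 517 entries, 43 that repeated another in name and counts were removed, and each member had 1 entry.

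Counts were fitted in R 4.3.3 with edgeR 4.0.16 (quasi-likelihood, TMM, default filter by group), after a check on simulated data, and limma 3.58.1 and DESeq2 1.42.0 were alternatives. TMM factors were 0.769 to 0.889 for control and 0.948 to 1.97 for HSA libraries. Ratios used counts plus 0.5, with exact two-sided permutation tests in scipy 1.17.1, adjusted over 22 ratios and called at an adjusted p under 0.05. Counting error covers counting only.

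The members, the lists and the rule for named miRNAs (the members, references, 3 most like each member, and called or extreme list members) were chosen with earlier results of these data known. Replicate numbers in the titles did not pair the dogs: same-numbered libraries correlated between -0.28 and 0.06.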

Additional observations from a re-analysis of the deposited data

Results flagged for a closer look

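The log2 ratio of miR-486-3p over the summed muscle list was -3.44 in HSA replicate 3, far from the other 5 HSA libraries, of which the nearest was at -7.67 and the farthest at -9.49. The gap to the nearest library was 0.699 of the range of the group, above Dixon's critical value of 0.625 for 6 libraries. It was the only one of 52 group values screened that stood apart in this way, and chance flags about 1 in 20 groups. The muscle sum of HSA replicate 3 was 942 CPM and its liver and gut sum 216640 CPM.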

How the results depend on the processing

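The direction of the 4 members was the same under the 17 alternatives of fit, filter and threshold and in the 12 fits without 1 library each, and miR-486-3p was called in all of them (log2 fold change -3.03 to -2.26, and -3.09 to -2.57 without 1 library). miR-451 (0.44 to 1.46, and 0.23 to 1.03) was called only without HSA replicates 2, 3 and 5 (1.46), an alternative added after seeing the data. miR-144 was no longer called with TMM factors computed without the members (1.57, adjusted p = 0.0128) or with a replicate block in edgeR (1.62, adjusted p = 0.0300), which left 1 member called. Without 1 library it ranged from 1.51 to 1.97, with 1 to 2 members called. miR-486 (-1.60 to -0.84, and -1.73 to -1.20 without 1 library) was called in DESeq2 (-1.39) and at a threshold of 0.05 (-1.33), while with library size only (-0.87), in both limma fits (-0.98) and without HSA replicates 2, 3 and 5 (-0.84) it did not reach a log2 change of 1. The block called 6 of 225 miRNAs instead of 58, and leaving out 1 library called 24 to 65. The numbers do not pair the dogs, and 0 of 6 control libraries correlated best with its own number.

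Without 1 library, log2 differences ranged from 1.08 to 1.75 for miR-486 over miR-486-3p, and for miR-451 from -0.51 to 0.27 over miR-23a, from 0.60 to 1.50 over miR-126, from 0.28 to 0.92 over miR-16 and from 1.88 to 3.73 over the muscle list. The last was not called in 8 of 12 such fits (without any 1 control, HSA replicate 2 or HSA replicate 3). They ranged from 0.86 to 1.36 for miR-144 over miR-23a, from -1.34 to -0.59 for miR-486 over miR-126, from -0.23 to 1.51 for miR-486 over the muscle list and from -1.32 to -0.11 for miR-486-3p over it. Without HSA replicates 3 and 5, miR-451 was at 0.27 over miR-23a, 1.37 over miR-126 and 1.06 over miR-16, miR-144 at 1.25 over miR-23a, and over the muscle list miR-486 was at -0.011 and miR-486-3p at -1.39. Differences of medians were 1.04 for miR-486 over miR-486-3p, 2.18 for miR-451 and -0.10 for miR-486 over the muscle list. With the replicate block, miR-486 over miR-486-3p (1.44) had an adjusted p of 0.0917 in an exact sign-flip test of the differences between same-numbered libraries. That test has fewer arrangements than the relabelling of 12 libraries, so its smallest possible p is higher. The causes were not tested.

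Correlations that turned sign without the 2 farthest libraries became 0.084 (miR-451 and miR-486) and 0.12 (miR-144 and miR-486-3p) in control, and -0.54 (miR-451 and miR-144), 0.78 (miR-451 and miR-486-3p), -0.50 (miR-144 and miR-486) and -0.098 (both miR-486 arms, -0.15 with deposited CPM) in HSA. Depth limits miR-144 most, with 129 reads at its lowest.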

Other observations

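Within a group of 6 libraries, none of 24 correlations between members passed adjustment in the exact permutation tests, where the lowest adjusted p was 0.40. In control, miR-451 and miR-144 had a Pearson's r of 0.86 (exact permutation p = 0.0611) and a Spearman's rho of 0.77 (exact permutation p = 0.103), and r was 0.85 without the 2 libraries farthest from the median of miR-451. In HSA the same pair had an r of 0.79 (exact permutation p = 0.0889) and a rho of 0.26 (exact permutation p = 0.658), and r was -0.54 without HSA replicates 4 and 5, so the HSA value rests on those libraries. miR-451 and miR-486 in HSA had an r of 0.74 (exact permutation p = 0.0736) and a rho of 0.94 (exact permutation p = 0.0167, adjusted p = 0.40), and r was 0.94 without the same libraries.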
